A study of Homo sapiens with 36 samples.

Results

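The CBARP locus lies near the end of the short arm of human chromosome 19, and 6 of its genes are described here out of 74628 genes in the count table. They are CBARP, its divergent transcript CBARP-DT, and the flanking genes STK11, ATP5F1D, MIDN and CIRBP. All 6 were found in the table by their Ensembl identifiers, and all 6 passed the filter on low counts. In the fits by day, CBARP-DT passed it through its counts with the control guide. CBARP and CBARP-DT were selected on this contrast, since their counts were lower with the RELA guide than with the control guide, so that difference is given as a description with no test. The 4 flanking genes were listed for their position.

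The cells were Jurkat, a human T-cell leukaemia line that stably carried dCas9-VP64, with the genotype given as dCas9-VP64 (CRISPRa) and mCherry+ in every sample. dCas9-VP64 is a Cas9 that cannot cut DNA, fused to a transcriptional activator, and a guide RNA brings it to a promoter (CRISPR activation). A pXPR lentiviral vector delivered either a guide against RELA (sgRELA) or a guide labelled non-targeting (sgControl), puromycin selection lasted 3 days, and cells were collected on day 5, 6 or 7 after transduction. Guide and day gave 6 groups with 3 biological replicates in each, and 2 RamDA-seq libraries were made from 100 pg of total RNA of each, which gave 36 libraries of 18 RNA samples. As far as the labels say, each guide name is 1 guide sequence in 1 stable line, so an effect of RELA and an effect of that guide are not separated. Untransduced cells were not analysed here, so a lower level in sgRELA and a higher level in sgControl, relative to untransduced cells, cannot be told apart. In bulk RNA, fewer cells that express a gene and less of its RNA per cell cannot be told apart either.

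Libraries held 7586205 to 16124473 counts, and the 18 RNA samples, with both libraries added, held 18769530 to 29503934. The targeted gene followed the labels: RELA was at 20.2 to 39.3 CPM (counts after scaling libraries to equal size) in the 9 sgControl samples and at 120 to 318 CPM in the 9 sgRELA samples. Of the 12 listed markers of this T-lineage line, all were measured, from 27.6 CPM for CD7 to 1074 CPM for PTPRC on average in sgControl, and CD28 alone was called between guides, 0.31 higher in sgRELA on the log2 scale. Of the B, myeloid and erythroid markers, HBA1 and HBB had no count, and CD79A, at 19.9 CPM on average in sgControl and 56.1 CPM in sgRELA, was the exception among genes that otherwise averaged at most 1.11 CPM in either guide. The part of CD79A in the results below was not tested. 1 library stood apart at this locus. Library 1 of sgControl day 6 replicate 1 had the fewest counts of all 36, and 5 of the 6 genes, all but CBARP-DT, had their highest sgControl library value there.

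CBARP encodes a membrane protein that binds the beta subunits of voltage-gated calcium channels and lowers channel activity. A divergent transcript starts beside the start of a coding gene and runs the opposite way, and the pair commonly shares a promoter rich in CpG dinucleotides. The noncoding RNA of such a pair is commonly short-lived. In GENCODE v29 on GRCh38, CBARP lies at chr19:1228287-1238027 on the minus strand, and CBARP-DT, listed there under a clone name as a long intergenic noncoding RNA, lies at chr19:1238179-1239522 on the plus strand. A stretch of 151 bases separates the 2 starts in GENCODE v29. It is shown because the genes on both sides of it were the ones chosen for the difference between guides. The sequence is from RefSeq (GRCh38.p14, chr19:1238028-1238178), written 5′ to 3′ on the minus strand, which is the direction in which CBARP is transcribed, with each GC box (GGGCGG on either strand) in capitals.

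CBARP to CBARP-DT start interval: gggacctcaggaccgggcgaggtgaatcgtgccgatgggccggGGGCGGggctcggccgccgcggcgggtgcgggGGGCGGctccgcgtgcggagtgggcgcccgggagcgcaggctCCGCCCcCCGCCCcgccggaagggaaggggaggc

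The stretch held 4 GC boxes, 23 CpG dinucleotides and 82.8% G and C. Searched on both strands, it also held 1 match to CCGGAAG, the core of ETS-type motifs. A loose kappa-B-type motif (GGG and CC with 5 bases of any kind between them) matched 3 times. There was no match to the CCAAT box, to the TATA box searched as TATAAA, or to the NRF1-type motif. Matches to different motifs may overlap. These letters were common: among the 35116 promoter windows of 300 bases in the RefSeq table (250 before to 50 after a start), 45.0% held the GC box, 58.7% the kappa-B-type motif, 34.6% the CCAAT box, 11.5% the TATA box, 10.3% the ETS-type motif and 5.78% the NRF1-type motif. RefSeq places the starts elsewhere than GENCODE v29. Its CBARP window, chr19:1237956-1238255, held 42 CpG and 80.3% G and C, against medians of 14 CpG and 58.7% over all windows, and 5.85% of windows held at least as many CpG. The RefSeq CBARP-DT window, chr19:1237678-1237977, held 53 CpG. It overlaps the CBARP window and ends before the printed stretch. By RefSeq that stretch therefore lies downstream of the CBARP-DT start and is not an interval between the 2 starts. High CpG content was shared by the neighbours, with 44 in the STK11 window, 33 and 41 in the 2 MIDN windows and 37 in the CIRBP window. ATP5F1D had no entry. A match is a description of the letters and not of bound protein.

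CBARP was a moderately expressed gene in the control cells and close to the limit of counting with the RELA guide. In sgControl, its level was 51.0, 51.2 and 40.1 CPM in the 3 replicates of day 5, 75.1, 38.9 and 43.3 CPM on day 6, and 18.3, 20.1 and 24.6 CPM on day 7. In sgRELA it was 1.70, 1.40 and 1.44 CPM on day 5, 0.921, 2.86 and 1.20 CPM on day 6, and 1.5, 0.609 and 1.26 CPM on day 7. Every sgControl sample was above every sgRELA sample, and the lowest sgControl values were all of day 7. In counts this was 443 to 1531 per sgControl sample and 15 to 64 per sgRELA sample. Counts assigned to CBARP were therefore still present in every sgRELA sample, and in each of its 18 libraries (4 to 39 counts, against 195 to 978 in sgControl libraries). CBARP shares 149 exonic bases with STK11 on the opposite strand, and whether the counting used strand is not given. How many of these low counts are STK11 reads therefore cannot be told, which also bears on the shares and ratios below.

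The mean of sgRELA was 3.20% of that of sgControl on day 5, 3.17% on day 6 and 5.33% on day 7. These are 31.3-, 31.5- and 18.7-fold differences of mean CPM, from 47.4 ± 6.39, 52.4 ± 19.7 and 21.0 ± 3.24 (SD, n = 3) in sgControl to 1.52 ± 0.163, 1.66 ± 1.05 and 1.12 ± 0.460 in sgRELA. The smaller ratio of day 7 went with a lower sgControl level, while the sgRELA means lay between 1.12 and 1.66 CPM. With counts added over libraries and days for each replicate number, CBARP was at 35.5 to 46.5 CPM in the 3 sgControl sums and 1.32 to 1.58 CPM in the 3 sgRELA sums. The fitted log2 fold change of sgRELA against sgControl across days was -4.78 ± 0.14 (SE). By day it was -4.97 ± 0.32, -4.97 ± 0.32 and -4.22 ± 0.32.

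CBARP-DT followed the same order at a lower count. In sgControl it was at 26.6, 25 and 19 CPM on day 5, 23.5, 17.7 and 22.0 CPM on day 6, and 7.95, 9.89 and 10.1 CPM on day 7. In sgRELA it was at 0.324, 0.160 and 0.963 CPM on day 5, 0.263, 0.358 and 0.105 CPM on day 6, and 0.315, 0.244 and 0.126 CPM on day 7. The guides did not overlap on any day, and the highest sgRELA sample, day 5 replicate 3, held 28 counts where the others held 2 to 8. The mean of sgRELA was 2.05%, 1.15% and 2.45% of that of sgControl on days 5, 6 and 7. The log2 fold change across days was -5.71 ± 0.21 (SE), and by day -5.55 ± 0.40, -6.38 ± 0.44 and -5.31 ± 0.43.

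**Figure D1:**
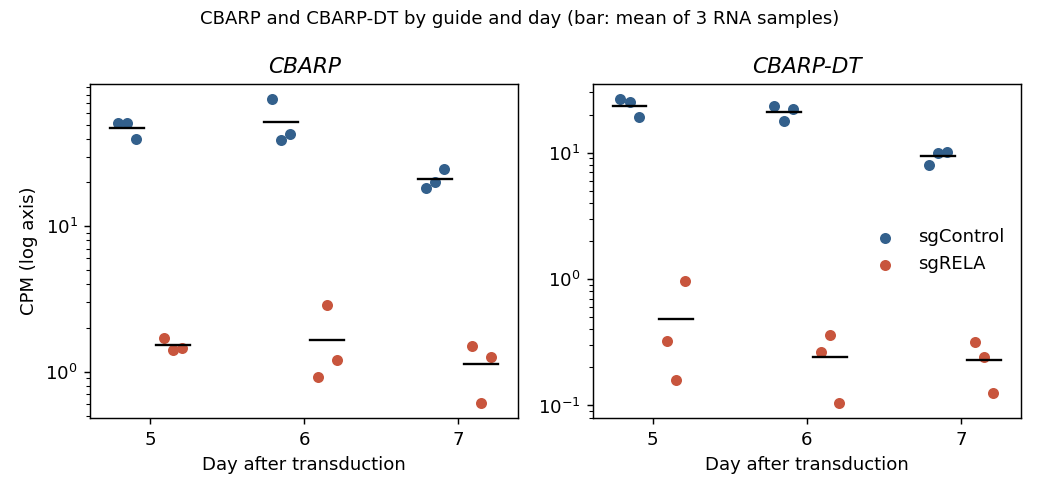
CPM of CBARP (left) and CBARP-DT (right) on a log axis in each of the 18 RNA samples, by day and guide; each point is 1 biological replicate with both libraries added, and each bar is the mean of 3. CBARP sits at 18.3 to 75.1 CPM in sgControl and at 0.609 to 2.86 CPM in sgRELA, and both genes are lowest in sgControl on day 7.

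The residual CBARP-DT signal rested on few reads. 5 of the 18 sgRELA libraries had no CBARP-DT count. If counts are independent, a count of 0 allows an expected count of up to 3 in that library at the 95% level. The lowest sgControl library had 95. Low counts in this table were more often even than odd: 64.2% of all values from 1 to 20 were even, and so were 92.3% of the 13 CBARP-DT values above 0 in sgRELA, against 55.6% of the 18 CBARP values there. Whether single reads or pairs were counted is not given in the sources used here. If counts came in pairs, the limit of 3 would be higher.

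Per length of exon, CBARP-DT was the more abundant of the pair in sgControl, with 27.9 ± 4.76 CPM per kb on day 5 against 10.3 ± 1.39 for CBARP (SD, n = 3). The noncoding gene had 49.5 ± 2.43 counts for each 100 CBARP counts in sgControl on day 5, 42.5 ± 10.1 on day 6 and 44.5 ± 4.18 on day 7. The lowest of the 9 ratios, 31.3, was that of day 6 replicate 1, whose library 1 stood apart. In sgRELA the mean was lower on each day, at 32.4 ± 29.9, 16.6 ± 10.6 and 23.7 ± 15.2 (SD, n = 3), and the 9 samples ran from 8.70 to 66.7, on 2 to 28 CBARP-DT counts each. Of these 9 ratios, 7 were below the lowest of sgControl, and the difference was not tested. The highest, 66.7, was day 5 replicate 3. The uncertainty about STK11 reads among the CBARP counts applies to these ratios too.

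In the comparison of guides across days, edgeR called 0.363% of the 28888 genes tested, 105 genes, at an adjusted p under 0.05. CBARP and CBARP-DT were among them, which their selection fixes. The 4 flanking genes were not, either across days or on any single day, where 0.138% (day 5), 0.214% (day 6) and 0.0907% (day 7) of 27553 genes were called. The question was how far along the chromosome the difference reached.

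ATP5F1D, the nearest flanking gene, encodes the delta subunit of mitochondrial ATP synthase, and starts 3.72 kb from the CBARP start (chr19:1241746-1244826, plus strand). It was at 12, 8.91 and 7.98 CPM in sgControl and 6.77, 8.60 and 5.23 CPM in sgRELA on day 5, and at 19.5, 9.47 and 9.0 CPM and 8.12, 9.98 and 13.7 CPM on day 6. On day 7 it was at 15.1, 14.7 and 15.5 CPM in sgControl and 15.3, 13.8 and 11.5 CPM in sgRELA. The guides overlapped on all 3 days. Across days the log2 difference was -0.29 ± 0.15 (SE), with a 95% interval of -0.60 to 0.01 and an adjusted p of 0.762 from edgeR. Much of that value came from the first libraries: it was -0.56 with these alone and 0.03 with the second libraries alone. In library 1 of sgControl day 6 replicate 1 ATP5F1D was at 37.3 CPM, and in library 2 of the same RNA at 7.84 CPM.

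MIDN encodes midnolin, a nuclear protein that carries other proteins to the proteasome, and starts 10.5 kb away (chr19:1248553-1259140, plus strand). It was at 30.3 to 36.7 CPM in sgControl and 30.9 to 38 CPM in sgRELA on day 5, at 33.8 to 45.9 and 37.9 to 46.7 CPM on day 6, and at 37.5 to 47.0 and 36.5 to 43.6 CPM on day 7. The ranges overlapped on each day. The log2 difference across days was -0.04 ± 0.08 (95% interval -0.20 to 0.13, edgeR adjusted p = 0.982), and its sign turned with the second libraries alone, where it was 0.14.

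CIRBP, a cold-inducible RNA-binding protein, was the most abundant of the 6 genes. It starts 21.4 kb away in GENCODE v29 (chr19:1259384-1274880, plus strand), while its RefSeq promoter window, chr19:1269082-1269381, lies farther away. On day 5 it was at 212, 222 and 216 CPM in sgControl and 235, 214 and 219 CPM in sgRELA. On day 6 it was at 317, 327 and 306 CPM and 328, 329 and 291 CPM. On day 7, sgControl was at 281, 275 and 285 CPM and sgRELA at 267, 273 and 266 CPM. These did not overlap, but the share of all genes without overlap was not computed. The sgRELA mean was 96.0% of that of sgControl (268.8 ± 4.03 against 280.1 ± 4.98 CPM, SD, n = 3). The day 7 log2 difference was -0.06 ± 0.07 (edgeR adjusted p = 1). Across days it was -0.02 ± 0.04, and its 95% interval, -0.11 to 0.07, was the narrowest of the 6 genes.

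STK11 encodes LKB1, a kinase that activates AMPK and its relatives, and lies on the other side of CBARP (chr19:1177558-1228435, plus strand). Its GENCODE v29 start is 60.5 kb from that of CBARP, while its RefSeq promoter window, chr19:1205528-1205827, lies nearer. Its 3′ end overlaps the 3′ end of CBARP by 149 exonic bases on the opposite strand. Whether the counting used strand is not given in the sources used here, so reads in that overlap are uncertain for both genes. On day 5 STK11 was at 33.3, 35.9 and 41.5 CPM in sgControl and 31.6, 28.2 and 29.8 CPM in sgRELA, without overlap. On day 6 it was at 40.9, 36.7 and 34.0 CPM against 41.0, 28.1 and 30.7 CPM, and on day 7 at 36.9, 40.8 and 43.8 CPM against 36.2, 41.7 and 30.9 CPM. The guides overlapped on both later days, and the share of all genes without overlap on a day was not computed. Across days STK11 was 0.21 ± 0.08 lower in sgRELA on the log2 scale (95% interval -0.38 to -0.03, for 1 gene alone). The unadjusted p was 0.0244 and the edgeR adjusted p over all genes 0.626, so the difference did not pass. The value was below 0 in every alternative analysis across days, from -0.28 to -0.15.

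**Figure D2:**
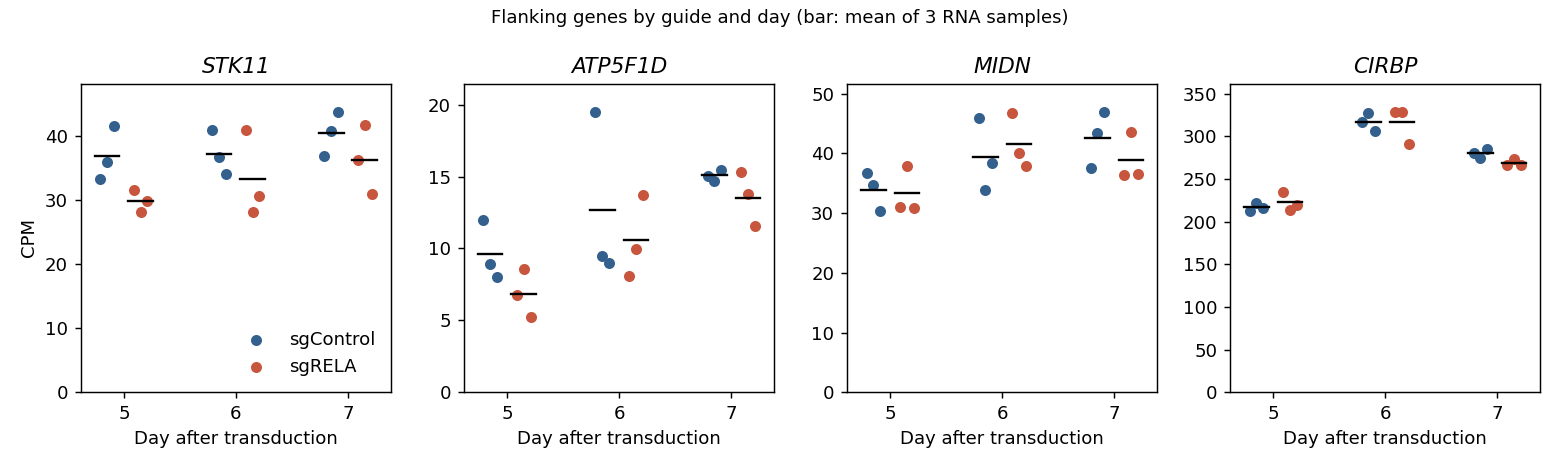
CPM of STK11, ATP5F1D, MIDN and CIRBP in each of the 18 RNA samples by day and guide; each point is 1 biological replicate with both libraries added, each bar the mean of 3, and each axis starts at 0. The guides overlap on each day except for STK11 on day 5 and CIRBP on day 7, and none of these differences passed the test. The share of all genes without overlap was not computed, so lack of overlap is a description.

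A wider view gave the same calls. Positions came from GENCODE v29, and the 20851 genes of the table that are not in it could not be placed in any window. Of 13 placed genes whose start lies within 100 kb of the CBARP start, 10 were tested across days, and edgeR called CBARP and CBARP-DT alone. Besides the 4 flanking genes, the others were SBNO2, a transcriptional coregulator, CIRBP-AS1, FAM174C and the pseudogene RPS15P9. Their log2 differences were -0.19 ± 0.09, -0.12 ± 0.30, -0.04 ± 0.15 and -0.21 ± 0.90 (SE), and the smallest of their edgeR adjusted p was 0.734, for SBNO2. CIRBP-AS1 lies antisense within CIRBP, so its reads cannot be assigned without strand. All 8 other genes had a negative value, with a median of -0.15 against -0.002 over all genes tested. Of the 8, edgeR called 0, DESeq2 called 0, and 2 (STK11 and SBNO2) had an unadjusted p under 0.05. Over all genes edgeR called 0.363%, so 0 of 8 is near that share. The signs of ATP5F1D and MIDN turned with the second libraries alone and that of CIRBP without sgRELA replicate 3.

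Within 250 kb, 27 other genes were tested, 22 had a value below 0, and the median was -0.07. Within 1 Mb, 87 were tested, 63 were below 0, the median was -0.09, and 10 had an unadjusted p under 0.05. Over all 28888 genes tested across days, 1947 had an unadjusted p under 0.05 and the median was -0.002. The share of all genes below 0 was not computed, and the lean around CBARP was not tested. The values within 1 Mb ran from -1.30 to 1.19. None of the other genes was called by edgeR across days in these windows, and the smallest adjusted p was 0.475. With 0.363% of all genes called, 0 calls among so few genes are near that share. The lack of calls therefore does not show how far the difference reached. By day, 60 of 83 were below 0 on day 5 (median -0.15), 55 of 83 on day 6 (median -0.09) and 39 of 83 on day 7 (median 0.005).

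**Figure D3:**
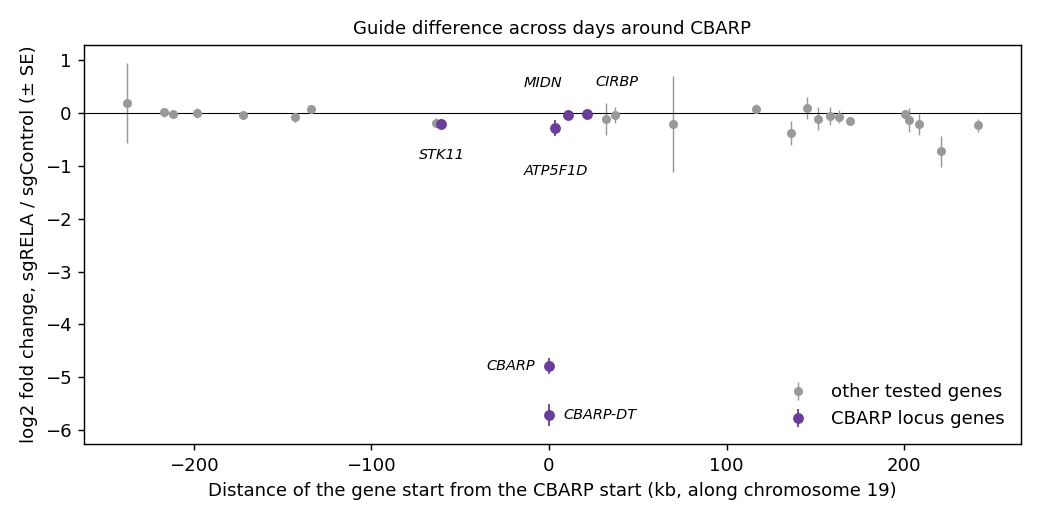
Log2 fold change of sgRELA against sgControl across days (vertical axis, with its SE) by distance of the gene start from the CBARP start. The distance is in kb (horizontal axis), for the tested genes with a GENCODE v29 position within 250 kb. CBARP and CBARP-DT sit at -4.78 and -5.71, while the other 27 genes lie between -0.73 and 0.18.

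The change with time within a guide did not enter the choice of genes and was tested. Both CBARP and CBARP-DT fell between day 6 and day 7 in sgControl. CBARP fell by 1.32 ± 0.26 on the log2 scale (SE, edgeR adjusted p = 0.000422), from 38.9 to 75.1 CPM down to 18.3 to 24.6 CPM. CBARP-DT fell by 1.18 ± 0.31 (adjusted p = 0.00801), from 17.7 to 23.5 CPM down to 7.95 to 10.1 CPM. A share of 14.6% of all genes was called in this comparison, so a call was not rare. Between day 5 and day 6 neither passed, at 0.14 ± 0.25 (adjusted p = 0.832) for CBARP and -0.16 ± 0.30 (0.849) for CBARP-DT, where 8.87% of genes were called. From day 5 to day 7, with 13% of genes called, CBARP fell by 1.17 ± 0.26 (edgeR adjusted p = 0.00199) and CBARP-DT by 1.34 ± 0.31 (0.00327).

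These falls depended in part on replicate 1. Without sgControl replicate 1, the day 6 to 7 change of CBARP was -0.88 (edgeR adjusted p = 0.0724) and that of CBARP-DT -0.99 (0.15), and without replicate 3 that of CBARP-DT was -1.20 (0.0755). With the 2 libraries of fewest detected genes left out, which include library 1 of day 6 replicate 1, both still passed, at -1.01 (0.00299) and -1.06 (0.0201). From day 5 to day 7, CBARP passed without any single replicate, and CBARP-DT did not pass without sgControl replicate 1 (-1.14, adjusted p = 0.0939). With the first libraries alone, CBARP passed from day 6 to 7 (-1.80, adjusted p = 0.00245) and from day 5 to 7 (-1.48, 0.0253). CBARP-DT did not (-1.31, adjusted p = 0.132, and -1.43, 0.140). With the second libraries alone neither passed: CBARP was at -0.86 in both (adjusted p = 0.0859 and 0.0908) and CBARP-DT at -1.05 (0.141) and -1.23 (0.0767).

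**Figure D4:**
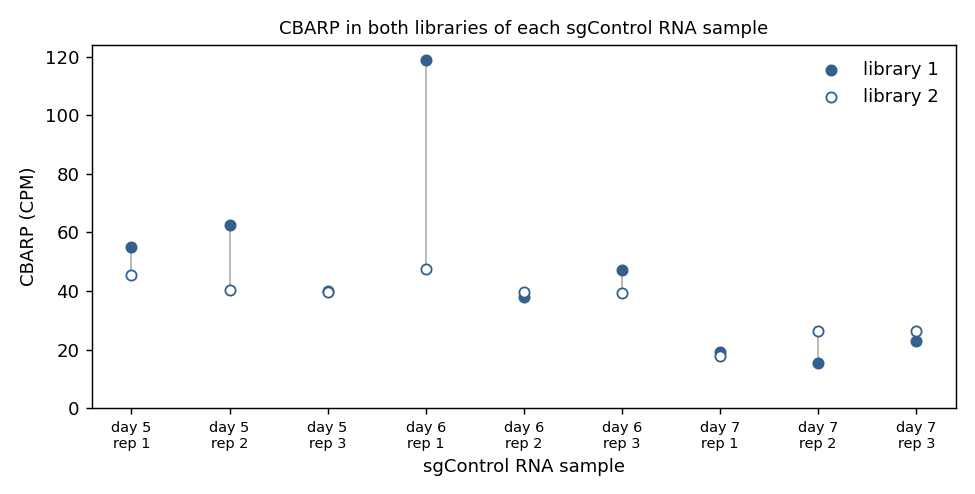
CBARP CPM in library 1 (filled) and library 2 (open) of each of the 9 sgControl RNA samples, joined by a line. Library 1 of day 6 replicate 1 reaches 118.9 CPM while library 2 of the same RNA is at 47.7 CPM, and the 6 libraries of day 7 lie between 15.4 and 26.5 CPM.

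With the RELA guide, the same pair did not pass between any days. CBARP changed by 0.14 ± 0.35 from day 5 to 6 and by -0.57 ± 0.36 from day 6 to 7 (edgeR adjusted p = 0.896 and 0.396). CBARP-DT changed by -0.99 ± 0.52 and -0.10 ± 0.59 (0.312 and 0.959). The counts behind these values were low, at 2 to 28 per sgRELA sample for CBARP-DT, which passed the filter here through sgControl. For CBARP, the 95% interval of the day 6 to 7 change ran from -1.31 to 0.17. The test of whether the guide difference itself varied with day called 0.00363% of genes, 1 gene, and 0 of the 6 members by edgeR or DESeq2. None of the 6 had an unadjusted p under 0.05 in it, and the edgeR unadjusted p was 0.183 for CBARP and 0.252 for CBARP-DT. The day 7 drop in sgControl is thus not shown to be particular to that guide. For CBARP-DT the tests cannot decide this, since its sgRELA counts were too low for a change to pass readily. Over the same days RELA fell by 0.55 ± 0.13 from day 5 to 6 in sgRELA and by 0.48 ± 0.13 in sgControl, and from day 6 to 7 it fell by 0.66 ± 0.13 in sgRELA and changed by 0.05 ± 0.14 in sgControl (edgeR adjusted p = 0.889).

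CIRBP moved with time in both guides. It rose from day 5 to day 6 by 0.55 ± 0.07 in sgControl (edgeR adjusted p = 6.17e-06) and by 0.51 ± 0.07 in sgRELA (2.30e-05), where 6.91% of genes were called. From day 6 to 7 it fell by 0.23 ± 0.07 in sgRELA (0.0307), with 12.2% of genes called there, and changed by -0.18 ± 0.07 in sgControl (0.108). It stayed above its day 5 level on day 7, by 0.37 ± 0.07 in sgControl (0.000593) and 0.27 ± 0.07 in sgRELA (0.0112), with 12.4% of genes called in the latter. The sgRELA call of day 6 to 7 was lost without any 1 sgRELA replicate, with adjusted p of 0.0735 to 0.281, and without sgControl replicate 3 (0.0542). The sgRELA call of day 5 to 7 was lost without replicate 2 (0.192) or replicate 3 (0.0915). Over all 13 alternative analyses, the sgRELA call of day 6 to 7 was lost in 7 and that of day 5 to 7 in 4. The sgRELA rise from day 5 to 6 was lost in 1, and so was the sgControl call of day 5 to 7. The sgControl rise from day 5 to 6 held in all 13.

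ATP5F1D rose from day 5 to day 7 in sgRELA by 0.98 ± 0.28 (edgeR adjusted p = 0.0157), a call that was lost without sgRELA replicate 1 (0.144) or replicate 3 (0.0924). In sgControl its change was 0.65 ± 0.27 (0.128), and 0.87 (0.0270) once the 2 libraries of fewest detected genes were left out. The test of the guide difference by day did not call it, so the 2 guides are not shown to differ. STK11 and MIDN did not pass between any days in either guide, with changes of 0.01 to 0.28 for STK11 and -0.10 to 0.33 for MIDN. Of the 6 genes, 1, 2 and 3 were called in sgControl (day 6 against 5, day 7 against 6 and day 7 against 5), and 1, 1 and 2 in sgRELA. The shares of all genes called were 8.87%, 14.6% and 13% in sgControl, and 6.91%, 12.2% and 12.4% in sgRELA.

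**Figure D5:**
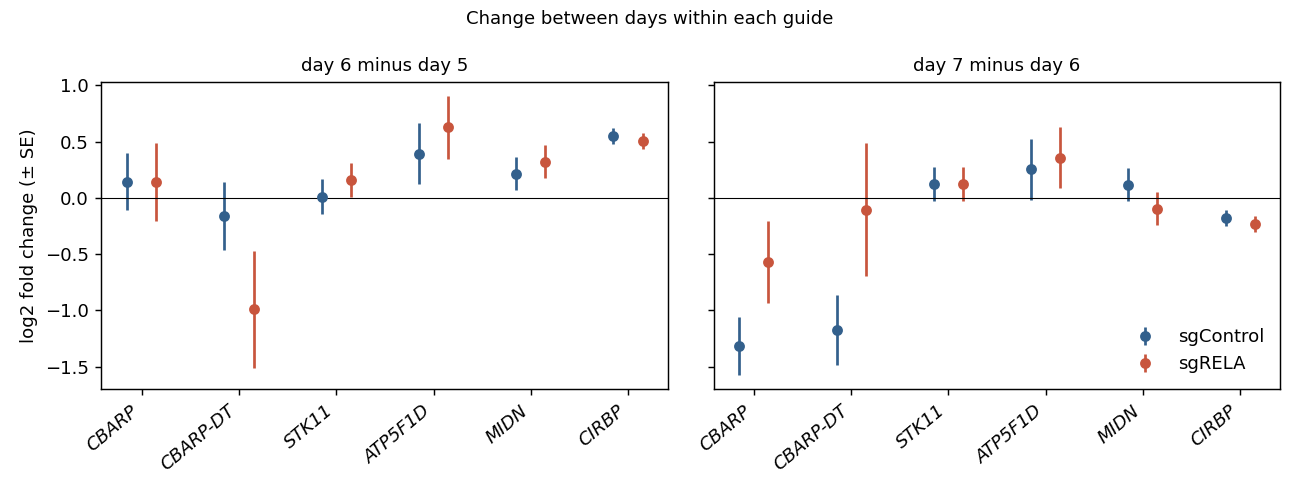
Log2 fold change with its SE from day 5 to 6 (left) and from day 6 to 7 (right) of the 6 genes within sgControl and within sgRELA. CIRBP rises by 0.55 and 0.51 in the left panel, and CBARP and CBARP-DT fall by 1.32 and 1.18 in sgControl in the right panel.

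Libraries of 1 day may have been made together, and the labels give no batch, so day and handling cannot be told apart. The time changes were set beside the lists of genes to which the members belong. Of 34 listed genes for voltage-gated calcium channel subunits and their regulators, 22 were tested between guides across days, and edgeR called CBARP alone. Of the other 21, 3 had an unadjusted p under 0.05 and DESeq2 called 1, CACNG8, which is named after its value was seen. The median over these 21 was -0.01. From day 5 to day 7, 21 listed genes were tested, with CBARP among them. Of these, 6 were called in sgControl, 1 higher and 5 lower, and 3 in sgRELA, all lower. Without CBARP, 5 of 20 were called in sgControl and 3 of 20 in sgRELA, beside 13% and 12.4% of all genes. The 3 with the smallest p in sgControl were CACNB3, a beta subunit of the kind CBARP binds, which fell by 0.76 ± 0.16, CBARP itself, and CACNA2D2, an auxiliary subunit, which fell by 0.83 ± 0.20. Both CACNB3 and CACNA2D2 also passed in sgRELA, by -0.60 and -0.83.

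Of 24 listed genes of the LKB1 complex and the kinases it activates, 22 were tested between guides. EdgeR called 0, DESeq2 called 0 of the 21 other than STK11, and 2 of these had an unadjusted p under 0.05. The median over the 22 was 0.03. From day 5 to 7, 21 listed genes were tested, with STK11 among them. In sgControl 7 of 21 were lower and 0 higher, including the AMPK subunits PRKAB2 (-0.73 ± 0.14) and PRKAA2 (-2.32 ± 0.48) and the kinase MARK3 (-0.36 ± 0.09). In sgRELA 2 of 21 passed, both lower. The shares of all genes called were again 13% and 12.4%.

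All 18 ATP synthase genes were tested between guides, and edgeR called 0, DESeq2 called 0 of the 17 other than ATP5F1D, and 0 of these 17 had an unadjusted p under 0.05. The median was 0.02. From day 5 to 7, 3 passed in sgControl, all for copies of the membrane ring subunit c: ATP5MC3 (0.44 ± 0.09) and ATP5MC1 (0.78 ± 0.27) rose, and ATP5MC2 fell by 0.39 ± 0.12. In sgRELA 5 of 18 passed, all higher, and the shares of all genes called were 13% in sgControl and 12.4% in sgRELA. RBM3, the other cold-inducible RNA-binding protein listed, rose with CIRBP from day 5 to 7, by 0.32 ± 0.08 in sgControl (edgeR adjusted p = 0.00358) and 0.26 ± 0.08 in sgRELA (0.0196). Between guides RBM3 differed by -0.003 ± 0.04 on the log2 scale (0.998).

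The genes whose levels were most like those of CBARP were ranked by Pearson's r of log2(CPM + 1), given as a description. Over the 18 RNA samples, CBARP-DT was first with r = 0.990. It was followed by ENSG00000287526 (0.978), ENSG00000309897 (0.938) and ENSG00000302533 (0.932), which have no symbol, and the pseudogene RPS4XP20 (0.913). EdgeR called each of these between guides across days, where 0.363% of all genes were called. Their log2 differences were -9.80, -5.06, -1.79 and -4.60 in that order. Their lowest values were 0 CPM, except 1.22 CPM for ENSG00000302533, and their positions are not given here. All of these samples share the split by guide for which CBARP was chosen, so calls between guides among these genes are no separate result. RELA had r = -0.914. The flanking genes had 0.428 (STK11), 0.242 (ATP5F1D), 0.010 (MIDN) and 0.005 (CIRBP). Within the 9 sgControl samples, which share the split by day, the order was another one: STK11IP (0.979), EEF2 (0.978), RACK1 (0.972), TMEM63B (0.972) and ITGA5 (0.970) led, and CBARP-DT had 0.942, the rank of 52. None of these 5 was called between guides across days by edgeR, where their log2 differences were -0.09 to 0.10 and the smallest adjusted p was 0.637.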

How the data were processed

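Total RNA of 18 Jurkat samples was profiled as 36 RamDA-seq libraries. The deposited table holds whole-number counts for every gene, which the labels call raw counts. The submitters' processing notes name cutadapt 1.18, STAR 2.7.9a and GRCh38. The counting tool, annotation and strand setting are not given in the sources used here. Groups and replicate numbers come from the labels, which speak of triplicate transductions; if replicates share a culture otherwise, p-values measure only the spread between these samples.

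Both libraries of an RNA sample were added. Single days, changes between days and the guide-by-day term were fitted on the 18 sums with a mean per group. The comparison across days used 6 sums, over libraries and days per guide and replicate number. Tests were edgeR 4.0.16 (R 4.3.3) quasi-likelihood F tests with TMM scaling, filterByExpr with a minimum count of 10, and Benjamini-Hochberg adjustment over all genes tested. The threshold for a call was an adjusted p of 0.05. SE were derived from the F statistic and 95% intervals from its degrees of freedom, for 1 gene at a time. CPM are TMM-scaled. The scripts were tested on simulated data. Intervals and floors cover counting error and the spread of these samples only, since the labels mention no molecular identifiers.

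Coordinates are those of GENCODE v29, matched by Ensembl identifier (53777 of 74628). Symbols matched for 57693. The members and lists were chosen with earlier results of these data known. Named were the 6 members, RELA, each tested gene within 100 kb of the CBARP start, called genes to 1 Mb, the 5 genes most like CBARP over 18 and over 9 samples, and up to 3 called genes per pathway list. The listed markers were described too. Alternatives were DESeq2 1.42.0, its size factors, no filter, either library alone, 2 libraries left out, each replicate left out, day terms, wider windows and a replicate block.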

Additional observations from a re-analysis of the deposited data

Results flagged for a closer look

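Within each guide and day, the 6 libraries of every member were searched for a value standing far from the rest, and 5 of 36 searches passed. Chance alone passes about 1 search in 20. 3 of the 5 concerned library 1 of sgControl day 6 replicate 1, the library with the fewest counts: CBARP was at 118.9 CPM (978 counts) there against 37.9 to 47.7 CPM in the other 5 libraries, STK11 at 64.3 CPM against 26.3 to 37.0 CPM, and ATP5F1D at 37.3 CPM against 7.84 to 10.1 CPM. The other 2 concerned STK11 on day 5. It was at 46.1 CPM in library 2 of sgControl replicate 3, against 31.7 to 36.7 CPM, and at 34.7 CPM in library 2 of sgRELA replicate 1, against 27.7 to 30.3 CPM.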

How the results depend on the processing

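CBARP and CBARP-DT stayed below sgControl in sgRELA under all 14 alternatives across days, which their selection on this difference fixes. CBARP ran from -4.94 to -4.60 and CBARP-DT from -6.10 to -5.49 on the log2 scale. No other gene placed by GENCODE v29 within 100 kb, 250 kb or 1 Mb was called under any, while calls over all genes, given below, were also few. With the replicate block CBARP and CBARP-DT were at -4.78 and -5.71, and it changed no call of a member. Same-numbered samples of the 2 guides correlated by -0.008 to 0.0746 in their deviations. Pairing by number is thus not shown, but noise in single samples could mask it, so it is not excluded. Counts of members called between days moved, and so did the calls over all genes, given at the end of this paragraph. With the first libraries alone, 1 was called in sgControl from day 5 to 7 and 1 from day 6 to 7, and 0 in each sgRELA comparison of days. With the second libraries alone, 0 were called from day 6 to 7 in sgControl and 0 in sgRELA. Without the filter, sgRELA had 1 from day 5 to 7 and 0 from day 6 to 7. Leaving out 1 replicate gave 0 to 2 from day 6 to 7 in sgControl, 0 to 2 from day 5 to 7 in sgRELA and 0 to 1 from day 6 to 7 in sgRELA. The single-library fits had fewer counts; otherwise the cause was not tested. No value of a called result reversed. Over all genes, calls across days ranged from 42 (first libraries alone) to 235 (DESeq2), with 105 in the analysis reported and 221 without the filter. Calls ranged from 15 to 73, 15 to 126 and 13 to 55 on days 5, 6 and 7, from 430 to 3474, 1879 to 4853 and 820 to 4423 between days 5 and 6, 6 and 7, and 5 and 7 in sgControl, from 196 to 2898, 961 to 4157 and 669 to 4371 in sgRELA, and from 0 to 24 for guide by day. Depth limits CBARP-DT in sgRELA, at 2 to 28 counts per sample.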
